A study of Mus musculus with 16 samples.

Results

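The genes described here are the activator, cryptochrome and ROR-element genes of the circadian clock, read in mouse liver. They were chosen by symbol: *Arntl* (the gene of BMAL1), *Npas2*, *Clock*, *Cry1*, *Cry2*, *Nfil3*, *Rora*, *Bhlhe40* and *Bhlhe41*, which are 9 of the 52143 genes in the count table. The choice was made with earlier results of these data known, so shares set beside those of all genes describe this set only. Of these 9, 8 passed the filter on low counts and were tested, and *Bhlhe41* is given by its values only. Liver RNA was sequenced from 16 male C57BL6/J mice in 4 groups of 4, from 6 weeks of age kept for 12 weeks on chow (Mouse Diet 9F) or on a high-fat diet (HFD, D12492, 60% fat). An siRNA that targets *Fgfr4* (3 mg/kg) or saline was given every 2 weeks. The groups are called HFD/FGFR4 KD and Chow/FGFR4 KD (siRNA, where KD is knockdown) and HFD and Chow (saline). The siRNA was joined to N-acetylgalactosamine, a sugar that hepatocytes take up, so the knockdown was aimed at these cells. No control siRNA was given, so the controls differ from the KD mice by the injection of any siRNA as well. All mice were kept on a light-dark cycle with food at all times, and the time of day at which livers were collected is not given in the sources used here.

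In the molecular clock, BMAL1 pairs with CLOCK or with its relative NPAS2, and the pair binds E-boxes and drives transcription of the period, cryptochrome and REV-ERB genes. Period and cryptochrome proteins come back to block the activators, while ROR proteins activate and REV-ERB proteins repress the ROR elements of *Arntl*, *Nfil3* and other genes. In the liver of a mouse under a light-dark cycle, *Arntl*, *Npas2*, *Clock* and *Nfil3* transcripts peak near the end of the night and the start of the day, opposite to the D-box factor *Dbp* and to the period genes, so the level in a single liver depends on the hour at which it was taken.

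Total counts per library ranged from 3445949 to 5976449. The targeted gene *Fgfr4* was at 29.7 ± 4.57 CPM (read counts scaled to library size, with TMM factors for composition; mean ± SD, n = 4 in every group) in Chow and at 25.7 ± 4.25 CPM in HFD. With KD it was at 4.78 ± 1.60 CPM on chow and 3.74 ± 1.35 CPM on HFD. Hepatocyte markers summed to between 52180 and 73440 CPM over the 16 libraries. This sum mainly reads *Alb* (39460 to 60340 CPM). Among the others, *Tat* ranged from 378 to 2633 CPM, *Cps1* from 1459 to 4529 CPM and *Asgr1* from 251 to 355 CPM. Of 4 adipocyte markers, *Lep* was at 0 in 16 libraries, *Adipoq* and *Plin1* in 11 each, and *Cfd* reached 24.4 CPM. Of 4 neutrophil markers, *Ly6g* was at 0 in 15 libraries, *Retnlg* in 11 and *S100a8* and *S100a9* in 6 each, and none exceeded 2.21 CPM. The library HFD/FGFR4 KD 1 stood apart: on the first principal component of the 500 most variable genes its score was -6.33, against 16.7 to 20.6 for HFD/FGFR4 KD 2 to 4 and 5.97 to 30.4 for the HFD controls. This lay within the range of Chow (-21.4 to -4.84), and Chow/FGFR4 KD was at -23.2 to -8.98. Calls for KD on HFD are given with and without this library, and under KD the same 7 of the 8 genes were called for HFD without it.

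Promoter windows from RefSeq (GRCm38.p6, 250 bases before to 50 bases after a transcription start) were found for 8 of the 9 genes, with 11 windows in all, and none was found for *Bhlhe40*. They were searched on both strands for the E-box CACGTG, the D-box TTANGTAA, the ROR core AGGTCA and the longer ROR element, which ends in that core, so that each ROR element also counts as a core. The windows of *Arntl*, *Clock*, *Nfil3* and *Cry1* that held a match are shown because these genes were called in at least 1 comparison. Capitals mark the match, which reads TGACCT where the core lies on the opposite strand.
*Arntl*, chr7:113207261-113207560, plus strand: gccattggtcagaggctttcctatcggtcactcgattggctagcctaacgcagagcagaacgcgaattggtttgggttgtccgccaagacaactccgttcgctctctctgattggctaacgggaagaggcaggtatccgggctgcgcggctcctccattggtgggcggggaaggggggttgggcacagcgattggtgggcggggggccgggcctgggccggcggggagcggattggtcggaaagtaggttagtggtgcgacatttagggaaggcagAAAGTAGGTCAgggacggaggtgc
*Clock*, chr5:76303453-76303752, minus strand: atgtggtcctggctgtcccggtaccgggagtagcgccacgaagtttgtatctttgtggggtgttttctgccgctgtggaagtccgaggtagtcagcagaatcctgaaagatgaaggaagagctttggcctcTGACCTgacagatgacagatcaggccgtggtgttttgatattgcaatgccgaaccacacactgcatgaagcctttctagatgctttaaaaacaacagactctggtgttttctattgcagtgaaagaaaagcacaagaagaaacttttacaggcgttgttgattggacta
*Nfil3*, chr13:52980990-52981289, minus strand: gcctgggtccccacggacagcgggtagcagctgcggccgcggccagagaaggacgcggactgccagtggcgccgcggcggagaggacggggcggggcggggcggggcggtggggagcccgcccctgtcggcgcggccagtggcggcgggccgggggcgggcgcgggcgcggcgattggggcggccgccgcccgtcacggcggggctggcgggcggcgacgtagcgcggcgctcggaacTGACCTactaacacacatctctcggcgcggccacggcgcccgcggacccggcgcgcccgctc
*Cry1*, chr10:85185005-85185304, minus strand: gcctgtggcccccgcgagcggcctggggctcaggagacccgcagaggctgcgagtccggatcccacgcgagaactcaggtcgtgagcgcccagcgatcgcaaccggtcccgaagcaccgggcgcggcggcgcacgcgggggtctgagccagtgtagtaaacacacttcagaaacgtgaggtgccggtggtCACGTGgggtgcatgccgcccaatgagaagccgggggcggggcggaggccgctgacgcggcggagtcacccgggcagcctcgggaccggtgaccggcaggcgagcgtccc

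The ROR element AAAGTAGGTCA lay in the *Arntl* window shown from 27 to 37 bases, counted from 1 at the first transcribed base. The other *Arntl* window (chr7:113207215-113207514) held no match. Of 32851 windows of all genes, 0.384% held such an element. The core alone lay at -119 to -114 in 1 of the 3 *Clock* windows and at -12 to -7 in *Nfil3*, and 16.3% of all windows held it. An E-box lay at -60 to -55 in *Cry1* and at -153 to -148 in *Bhlhe41* (chr6:145865371-145865670), against 7.15% of all windows. The D-box was in no window of the 9 genes and in 2.32% of all windows. A match describes letters and not a bound site.

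**Figure D1:**
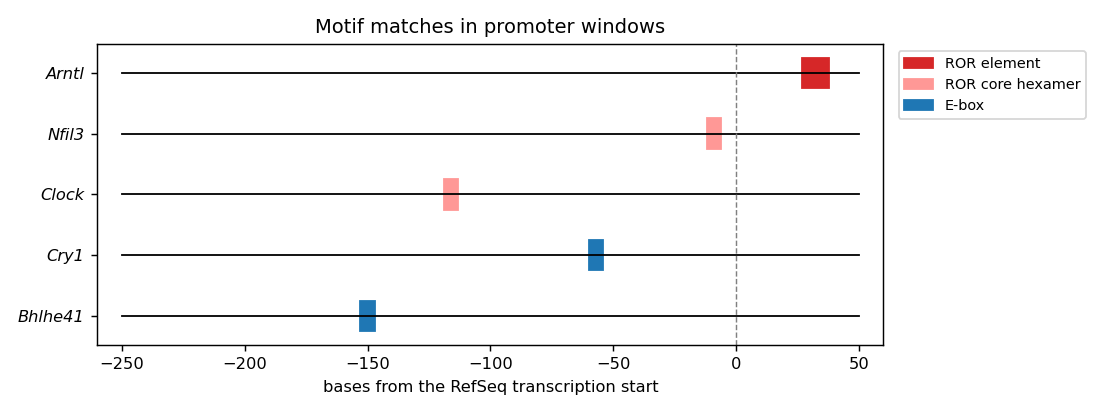
Positions of motif matches in the RefSeq promoter windows of 5 clock genes, in bases from the transcription start (dashed line); each line is a window and each box a match. Only windows with a match are drawn: that of *Arntl* held the ROR element, those of *Nfil3* and *Clock* its core, and those of *Cry1* and *Bhlhe41* an E-box.

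In saline-injected mice, the transcripts of BMAL1, of both its partners, of *Cry1*, of *Nfil3* and of *Rora* were lower on HFD. *Arntl* was 4.26-fold, *Nfil3* 3.71-fold and *Clock* 2.12-fold lower on HFD than on chow, and *Cry2* was the only one of the 8 tested that was higher, by 1.51-fold. Called here means an unadjusted p under 0.05 and a Benjamini-Hochberg adjusted p under 0.25 over 11324 genes in limma-voom, the threshold of the study. Of the 8 genes, 7 were called, against 26% of all genes tested: 6 lower (12.7% of all genes) and 1 higher (13.3%). At an adjusted p under 0.05, 5 were called, against 9.20% of all genes. In 5 of the 8 all HFD livers lay below all Chow livers, which held for 7.76% of all genes. The median log2 change was -0.96 over the 8 genes and 0.01 over all genes tested.

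Under FGFR4 KD, 6 of these genes were also lower on HFD and *Cry2* was higher, with other sizes of change. *Cry1* was 2.52-fold lower in HFD/FGFR4 KD than in Chow/FGFR4 KD, *Rora* 1.52-fold and *Arntl* 1.66-fold lower. Of the 8 genes 7 were called, against 20.2% of all genes: 6 lower (10.1%) and 1 higher (10.1%). At an adjusted p under 0.05, 2 were called (*Cry1* and *Rora*), against 3.10% of all genes, and in 4 the groups lay apart with HFD/FGFR4 KD lower, against 5.61%. The median log2 change was -0.67, and -0.01 over all genes.

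The effect of KD was examined on each diet. On HFD, *Arntl* was 2.92-fold, *Nfil3* 2.23-fold and *Clock* 1.45-fold higher with KD, while neither cryptochrome was called. This made 3 of 8 genes called, against 3.14% of all genes, all of them higher (1.50%). None of the 8 reached an adjusted p under 0.05 in limma-voom (0.274% of all genes did), 3 had an unadjusted p under 0.05, and edgeR and DESeq2 each called 3 at the threshold of the study. The median log2 change was 0.39 over the 8 genes and 0.00 over all genes. Without HFD/FGFR4 KD 1, limma-voom called 1 of the 8, *Arntl*, with 138 of all genes called. Without HFD 3 it called none of the 8, with 89 of all genes called. On chow none of the 8 was called (0.00883% of all genes, a single gene), and *Cry1* alone had an unadjusted p under 0.05, which 4.58% of all genes had. edgeR and DESeq2 also called none on chow. This comparison on HFD and the diet comparison in saline-injected mice share the 4 HFD controls, so a low HFD control enters both, and no relation between them is drawn.

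The test of whether the KD effect differed between the diets called none of the 8 genes in limma-voom, against 0.0353% of all genes. An unadjusted p under 0.05 was found for 3 (*Arntl*, *Clock* and *Nfil3*), against 6.76% of all genes. edgeR called none, and DESeq2 called 1, *Clock*, with an adjusted p of 0.189 against 0.567 in limma-voom. DESeq2 gave no adjusted p for *Arntl* (unadjusted p 0.00585), *Npas2* and *Cry1* here, so these could not be called by it.

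**Figure D2:**
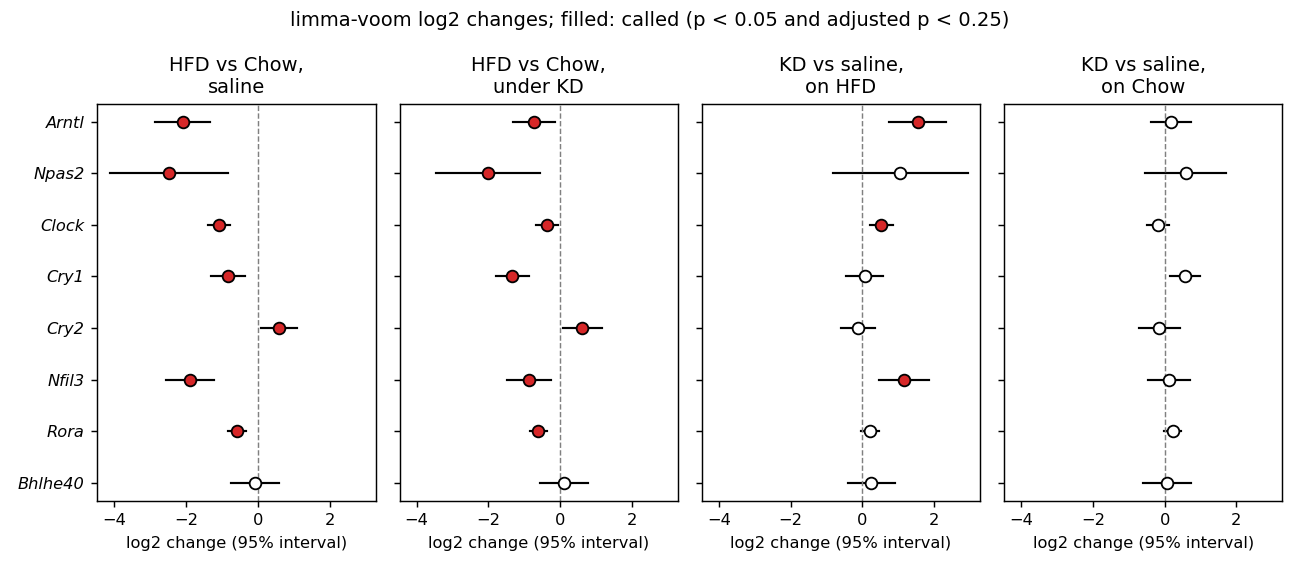
Log2 changes of the 8 tested genes in 4 comparisons from limma-voom (points) with 95% intervals (bars); filled points were called. For HFD 7 points are filled in saline-injected mice and 7 under KD, for KD on HFD 3 are filled, and for KD on chow none is.

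The level of the activator *Arntl* (ENSMUSG00000055116, chromosome 7, 113207465 to 113314126), which encodes BMAL1, was 16.6, 15.1, 20.5 and 28.4 CPM in Chow 1 to 4. In Chow/FGFR4 KD 1 to 4 it was 19.6, 24, 25.4 and 20.95 CPM. It was 9.08, 5.40, 4.45 and 1.41 CPM in HFD 1 to 4. In HFD/FGFR4 KD 1 to 4 it was 17.1, 9.07, 12.6 and 17.1 CPM, so that 2 of these livers lay above Chow 1 and 2 and HFD/FGFR4 KD 2 was level with HFD 1. HFD 4, with 7 counts, was the lowest library, and the HFD controls differed among themselves by 6.42-fold from lowest to highest, against 1.88-fold in Chow. In order of group means the levels were 22.5 ± 2.68 CPM in Chow/FGFR4 KD, 20.2 ± 5.95 in Chow, 14.0 ± 3.90 in HFD/FGFR4 KD and 5.08 ± 3.16 in HFD. The first 2 of this order did not differ beyond their spread (log2 change with KD on chow 0.18, SE 0.266, limma-voom adjusted p 0.979).

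*Arntl* fell by 2.09 on the log2 scale with HFD in saline-injected mice (SE 0.365, limma-voom adjusted p 0.00296), and each HFD control lay below each Chow liver. Under KD it fell by 0.73 (SE 0.282, adjusted p 0.162), also with no overlap. That call was lost without HFD/FGFR4 KD 2 (adjusted p 0.354) or 3 (0.295) and without Chow/FGFR4 KD 2 (0.257) or 3 (0.256). With KD on HFD it rose by 1.55 (95% interval 0.75 to 2.34, adjusted p 0.102). The groups touched: the highest HFD control was at 9.08 CPM and the lowest KD liver at 9.07 CPM. Without HFD/FGFR4 KD 1 the change was 1.43 (adjusted p 0.232), and the call was lost without HFD 3 (1.54, adjusted p 0.268) or HFD/FGFR4 KD 4 (1.45, adjusted p 0.256). The KD effect on HFD exceeded that on chow by 1.37 (SE 0.461, p 0.00892), which did not pass after adjustment (limma-voom adjusted p 0.592).

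*Npas2* (ENSMUSG00000026077, chromosome 1, 39193731 to 39363236) encodes the relative of CLOCK and had the fewest counts of the 8 tested genes. It was at 3.69, 1.30, 5.27 and 8.76 CPM in Chow 1 to 4 and at 5.75, 8.92, 8.48 and 3.03 CPM in Chow/FGFR4 KD 1 to 4. In HFD 1 to 4 it was at 2.45, 0.817, 1.23 and 0 CPM, from 17, 5, 8 and 0 counts. The count of 0 in HFD 4 allows a level of up to 0.606 CPM (3 counts), and this limit covers counting error only. In HFD/FGFR4 KD 1 to 4 *Npas2* was at 1.95, 0.885, 1.99 and 1.04 CPM, all above 0 but within the range of the HFD controls. With HFD it fell by 2.48 in saline-injected mice (SE 0.777, limma-voom adjusted p 0.0550), where HFD 1 and Chow 2 made the groups overlap. Without HFD 4 it fell by 1.50, which remained called. Under KD it fell by 2.02 (adjusted p 0.116), and all HFD/FGFR4 KD livers lay below all Chow/FGFR4 KD livers. The change with KD on HFD was 1.05 with a wide interval (-0.83 to 2.93, limma-voom adjusted p 0.731), and 0.07 without HFD 4. It was 0.33 with edgeR and 0.35 with DESeq2, and neither called it. A change was not detectable at this depth and spread between livers (SD 90.9% of the mean in HFD).

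*Clock* (ENSMUSG00000029238, chromosome 5, 76209868 to 76304792), which encodes the main partner of BMAL1, was at 75.7, 87.7, 61.7 and 74.3 CPM in Chow 1 to 4. It was at 60.3, 58.1, 67.2 and 77.2 CPM in Chow/FGFR4 KD 1 to 4 and at 35.0, 41.5, 30.2 and 33.9 CPM in HFD 1 to 4. In HFD/FGFR4 KD 1 to 4 it was at 61.4, 46.5, 57.3 and 38.6 CPM. The HFD controls were the lowest group and replicates were close, with a spread (SD) of 13.4% of the mean. The fall with HFD in saline-injected mice was 1.08 (SE 0.147, limma-voom adjusted p 0.000592), rank 22 by p among the 11324 genes, with no overlap. Under KD *Clock* fell by 0.36 (SE 0.148, adjusted p 0.177) with overlapping groups.

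With KD on HFD *Clock* rose by 0.53 (95% interval 0.21 to 0.85, limma-voom adjusted p 0.177). In this comparison HFD/FGFR4 KD 4 lay below HFD 2. Without HFD/FGFR4 KD 1 the change was 0.44 and not called (adjusted p 0.396). The call was also lost without HFD/FGFR4 KD 3 (adjusted p 0.388) and without HFD 1 (0.294), HFD 3 (0.435) or HFD 4 (0.262). On chow the change with KD was -0.19 (adjusted p 0.976). The diet effect under KD was lost without Chow/FGFR4 KD 3 (adjusted p 0.263) or 4 (0.364) and without HFD/FGFR4 KD 2 (0.329) or 4 (0.417).

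**Figure D3:**
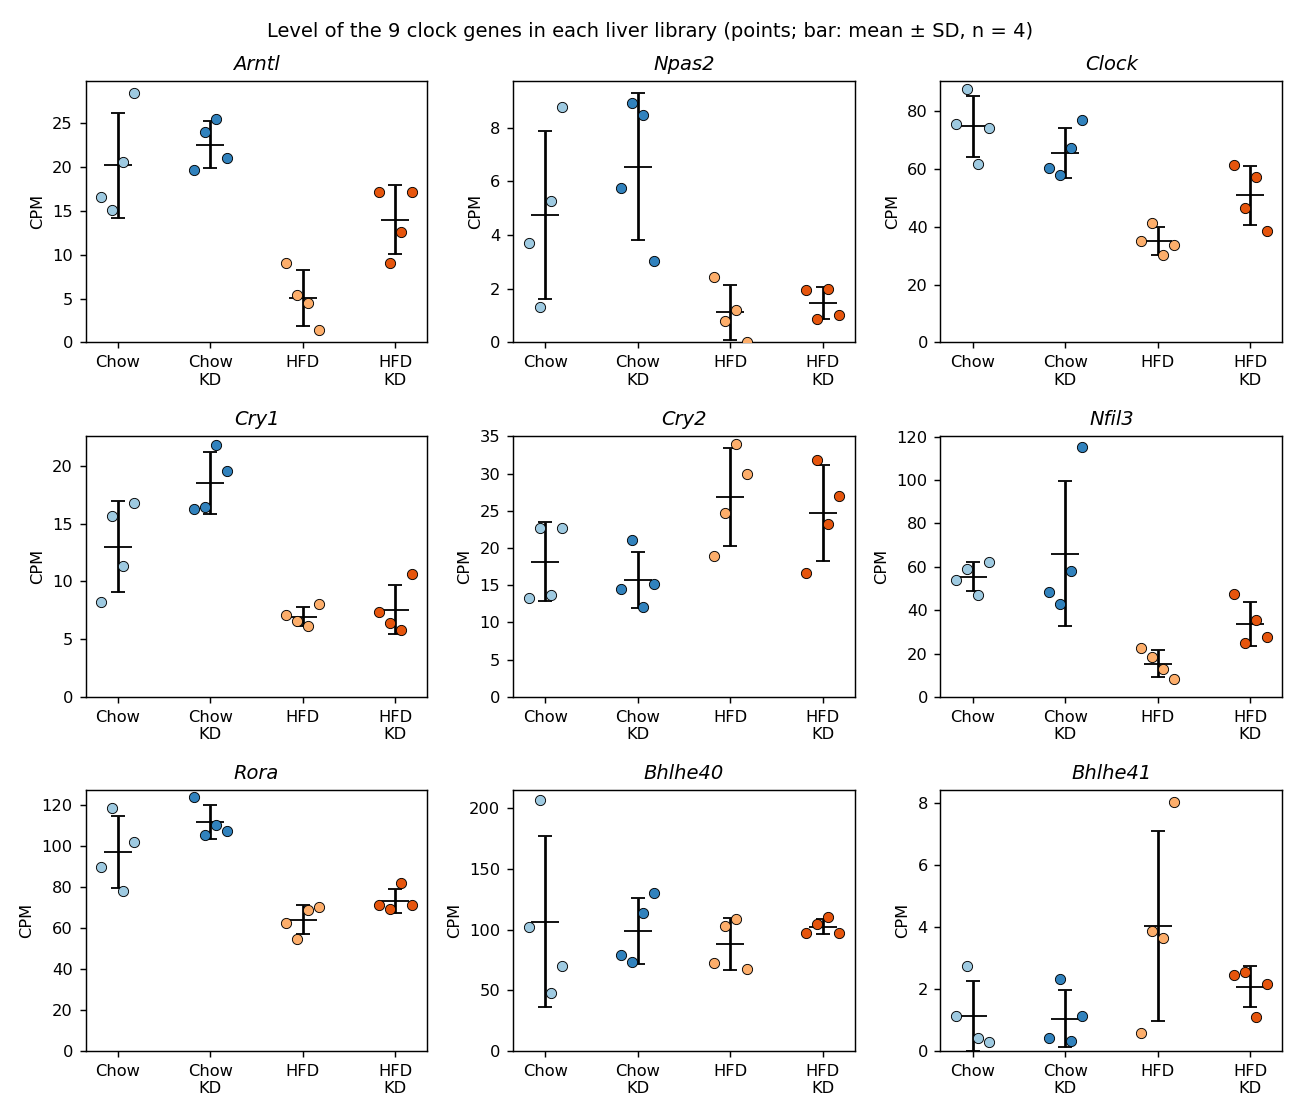
CPM of each of the 9 clock genes in the 16 livers (points, by group), with the mean and SD of the 4 livers of a group (bars). For *Arntl*, *Npas2*, *Clock*, *Cry1*, *Nfil3* and *Rora* the HFD controls had the lowest mean, with that of HFD/FGFR4 KD between theirs and those of the chow groups. The change with KD on HFD was called for *Arntl*, *Clock* and *Nfil3* and not for *Npas2*, *Cry1* or *Rora*.

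Among the repressors, *Cry1* (ENSMUSG00000020038, chromosome 10, 85131700 to 85185064) encodes a cryptochrome that blocks the BMAL1 pair. It was at 8.20, 15.7, 11.4 and 16.8 CPM in Chow 1 to 4 and at 16.3, 16.5, 21.8 and 19.6 CPM in Chow/FGFR4 KD 1 to 4. In HFD 1 to 4 it was at 7.06, 6.54, 6.13 and 8.08 CPM, and in HFD/FGFR4 KD 1 to 4 at 7.37, 6.42, 5.81 and 10.6 CPM. The HFD groups overlapped with each other, and Chow/FGFR4 KD had the highest mean. *Cry1* fell with HFD by 0.84 in saline-injected mice (SE 0.221, limma-voom adjusted p 0.0254) and by 1.33 under KD (SE 0.222, adjusted p 0.00520), each with no overlap. With KD the log2 change was 0.06 on HFD (95% interval -0.45 to 0.58, adjusted p 0.952). On chow it was 0.56 (p 0.0116, adjusted p 0.976), where Chow 4 overlapped with the KD livers.

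*Cry2* (ENSMUSG00000068742, chromosome 2, 92403646 to 92434043) encodes the second cryptochrome. It was at 13.3, 22.7, 13.7 and 22.7 CPM in Chow 1 to 4 and at 14.5, 21.03, 12.1 and 15.2 CPM in Chow/FGFR4 KD 1 to 4. On HFD it was at 18.9, 24.7, 34.0 and 29.9 CPM in the controls and at 16.7, 31.9, 23.2 and 26.95 CPM with KD. The 3 highest livers were on HFD (HFD 3, HFD/FGFR4 KD 2 and HFD 4), but the groups overlapped. With HFD *Cry2* rose by 0.59 in saline-injected mice (SE 0.237, limma-voom adjusted p 0.124) and by 0.62 under KD (SE 0.259, adjusted p 0.192). The first call was lost without Chow 1 (adjusted p 0.317), Chow 3 (0.257) or HFD 3 (0.295), and without HFD 4 through its unadjusted p of 0.0518. The second was lost in 6 of 8 fits that left out a library: Chow/FGFR4 KD 1 (adjusted p 0.315), 3 (0.326) and 4 (0.299), and HFD/FGFR4 KD 2 (0.381), 3 (0.281) and 4 (0.341). KD changed it by -0.12 on HFD (95% interval -0.59 to 0.34) and by -0.14 on chow (-0.72 to 0.43).

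Of the genes read from ROR elements, *Nfil3* (ENSMUSG00000056749, chromosome 13, 52967209 to 52981073) encodes a repressor that competes for D-boxes. It was at 53.9, 59.0, 46.9 and 62.3 CPM in Chow 1 to 4 and at 48.2, 43.0, 58.1 and 115 CPM in Chow/FGFR4 KD 1 to 4. In HFD 1 to 4 it was at 22.5, 18.3, 12.7 and 8.08 CPM, and in HFD/FGFR4 KD 1 to 4 at 47.5, 25.01, 35.4 and 27.5 CPM. The HFD controls lay below every other liver. Chow/FGFR4 KD 4 stood high, and in the same liver *Saa2*, an acute-phase gene named after its values were seen, was at 2378 CPM, against 3.13 to 119 CPM in the other 15; its part in the *Nfil3* level was not tested.

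With HFD *Nfil3* fell by 1.89 in saline-injected mice (SE 0.319, limma-voom adjusted p 0.00232). Under KD it fell by 0.87 (SE 0.290, adjusted p 0.110), and by 0.57 without Chow/FGFR4 KD 4, which remained called (adjusted p 0.246). With KD on HFD it rose by 1.16 (95% interval 0.46 to 1.86, adjusted p 0.186), and all 4 KD livers lay above all 4 HFD controls, which 3.16% of all genes did in that direction. Without HFD/FGFR4 KD 1 the change was 0.98 and not called (adjusted p 0.394). The call was also lost without HFD/FGFR4 KD 3 (adjusted p 0.348) or 4 (0.294) and without HFD 3 (0.430) or HFD 4 (0.308). On chow KD gave 0.13 (adjusted p 0.984).

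*Rora* (ENSMUSG00000032238, chromosome 9, 68653786 to 69388246) encodes the activator of ROR elements. It was at 90.2, 119, 78.1 and 102 CPM in Chow 1 to 4 and at 124, 106, 110 and 108 CPM in Chow/FGFR4 KD 1 to 4. In HFD 1 to 4 it was at 62.7, 54.8, 69.1 and 70.5 CPM, and in HFD/FGFR4 KD 1 to 4 at 71.5, 69.3, 82.1 and 71.3 CPM. Each HFD group lay below the chow group of the same treatment. *Rora* fell by 0.59 in saline-injected mice (SE 0.117, limma-voom adjusted p 0.00592) and by 0.61 under KD (SE 0.117, adjusted p 0.0136). With library totals as scaling the first of these was -0.31 (adjusted p 0.0872), still called. The changes with KD were 0.20 on HFD (95% interval -0.05 to 0.45, adjusted p 0.575) and 0.22 on chow (-0.02 to 0.47, adjusted p 0.976), and their difference was -0.02 (95% interval -0.37 to 0.33).

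*Bhlhe40* (ENSMUSG00000030103, chromosome 6, 108660629 to 108666925) encodes DEC1, a repressor that competes with the BMAL1 pair for E-boxes. It was at 102, 206, 48.1 and 69.8 CPM in Chow 1 to 4 and at 79.5, 73.6, 114 and 130 CPM in Chow/FGFR4 KD 1 to 4. In HFD 1 to 4 it was at 72.8, 103, 109 and 67.2 CPM, and in HFD/FGFR4 KD 1 to 4 at 97.6, 105, 110 and 97.4 CPM. Chow 2 was the highest liver and Chow 3 the lowest, so the Chow livers spanned the values of all the other groups. None of the 4 comparisons called it in limma-voom, with adjusted p-values of 0.901 for HFD in saline-injected mice, 0.899 for HFD under KD, 0.826 for KD on HFD and 0.985 for KD on chow. The interval for KD on HFD, -0.41 to 0.91, holds changes of the size seen for *Clock*.

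*Bhlhe41* (ENSMUSG00000030256, chromosome 6, 145858243 to 145865558), which encodes the relative DEC2, was under 1 CPM in 6 libraries and failed the filter. It was at 1.13, 2.74, 0.418 and 0.306 CPM in Chow 1 to 4 and at 0.418, 2.32, 0.320 and 1.15 CPM in Chow/FGFR4 KD 1 to 4. In HFD 1 to 4 it was at 0.602, 3.89, 3.65 and 8.02 CPM, and in HFD/FGFR4 KD 1 to 4 at 2.47, 2.56, 1.12 and 2.18 CPM. The highest liver was HFD 4, which was the lowest for *Arntl* and *Nfil3*, and HFD 1 lay within the chow range. *Gm43909* lies on the opposite strand and shares 1280 exon bases with it, so reads of both cannot be told apart if strand was not used. With the alternative filter that keeps *Bhlhe41* (1 CPM in at least 4 libraries), the log2 change with HFD in saline-injected mice was 1.58 (SE 0.905, limma-voom adjusted p 0.292), and it was not called in any comparison.

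Per kilobase of exon, *Nfil3* was the most abundant of the 9 in Chow, at 27.4 ± 3.31 CPM per kb. *Bhlhe40* followed at 22.6 ± 14.9, and these first 2 did not differ beyond their spread. *Rora* was at 7.44 ± 1.33 and *Clock* at 5.45 ± 0.774 CPM per kb. *Cry1* at 3.89 ± 1.19, *Cry2* at 2.87 ± 0.839 and *Arntl* at 2.68 ± 0.790 CPM per kb overlapped. *Npas2* was at 0.993 ± 0.653 and *Bhlhe41* at 0.171 ± 0.167 CPM per kb. In the HFD controls *Arntl* was at 0.676 ± 0.420 and *Cry2* at 4.25 ± 1.04 CPM per kb, so in this group *Cry2* exceeded *Arntl* in level. The share of 31-base words of their transcripts that also occur in other genes was at most 0.303% (*Cry2*).

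An added comparison, chosen after the data were seen, set HFD/FGFR4 KD against Chow. Of the 8 genes 4 were called, all lower, against 7.28% of all genes: *Clock* by 0.55 (limma-voom adjusted p 0.0583), *Cry1* by 0.77 (0.0911), *Nfil3* by 0.74 (0.192) and *Rora* by 0.38 (0.100). Only *Clock* had groups that did not overlap (9.71% of all genes). *Arntl* was not called, with a log2 change of -0.54 (95% interval -1.14 to 0.06, adjusted p 0.339). Without HFD/FGFR4 KD 1 *Arntl* was called at -0.66 (adjusted p 0.249) and *Cry2* at 0.64 (adjusted p 0.140), and the other 4 calls remained.

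Other clock genes were counted from lists chosen with earlier results known. Of 9 genes of the E-box and D-box arm, 8 were tested and 6 were called higher with HFD in saline-injected mice (13.3% of all genes were), with a median log2 change of 0.95 over the 8. *Dbp*, a D-box activator, rose from 3.18 ± 3.55 to 47.0 ± 24.2 CPM (4.32, SE 0.773, limma-voom adjusted p 0.00344). *Per3* rose by 2.65 (adjusted p 0.00334), *Per2* by 1.34 (0.00628), *Tef* by 1.11 (0.00190), *Hlf* by 0.79 (0.00344) and *Nr1d2*, a REV-ERB gene, by 0.49 (0.0945, and p 0.0648 without Chow 4, which ended the call). *Nr1d1*, the other REV-ERB gene, was at 74.3 ± 21.8 CPM in Chow and 79.0 ± 24.1 CPM in HFD (adjusted p 0.825). Under KD, 7 of the 8 were called higher with HFD (10.1% of all genes), with a median of 0.76, and these were the 6 above and *Nr1d1* (0.82, adjusted p 0.0603). The number was also 7 without HFD/FGFR4 KD 1, with *Per1* (0.59, adjusted p 0.204) in place of *Per2* (0.62, adjusted p 0.294). Among the fits that left out a library, the call of *Per2* under KD held only without Chow/FGFR4 KD 3 or HFD/FGFR4 KD 4 (adjusted p up to 0.438) and that of *Hlf* only without Chow/FGFR4 KD 3 or HFD/FGFR4 KD 1 (up to 0.300).

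With KD on HFD, 2 of the 8 were called lower (1.64% of all genes), *Per2* (log2 change -0.85, limma-voom adjusted p 0.177) and *Dbp* (-1.09, adjusted p 0.249), with a median of -0.30 over the 8. Neither was called without HFD/FGFR4 KD 1 (*Per2* -0.94, adjusted p 0.252, and *Dbp* -0.92, adjusted p 0.490). The same held without HFD 3, HFD 4, HFD/FGFR4 KD 3 or HFD/FGFR4 KD 4, with adjusted p-values up to 0.395 for *Per2* and 0.492 for *Dbp*, and without HFD 1 the number called lower was 4. On chow none of the 8 was called by limma-voom.

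**Figure D4:**
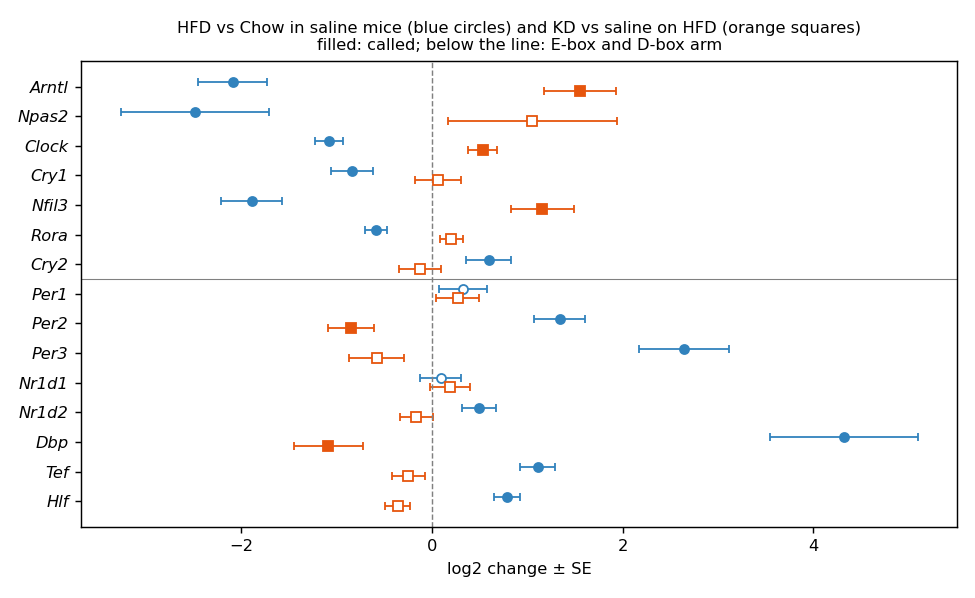
Log2 changes ± SE of the 7 called genes of this set (above the line) and of the E-box and D-box arm (below it) for HFD in saline-injected mice (circles) and KD on HFD (squares); filled marks were called. *Cry2* lay on the same side of 0 as *Dbp*, *Per2* and *Per3*, opposite to *Arntl*, and both comparisons share the HFD controls.

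Further lists were counted in the same way. Among modifiers of clock proteins (10 of 11 tested) only *Usp2*, which removes ubiquitin, was called higher with HFD in saline-injected mice (1.85, limma-voom adjusted p 0.0849). This was 1 of 10, against 13.3% of all genes. None of the 10 was called with KD on HFD (3.14% of all genes). Among 7 coactivators and chromatin partners, only *Crebbp*, which encodes an acetyltransferase, was called with HFD in saline-injected mice. It fell by 0.60 (limma-voom adjusted p 0.00369), so 1 of 7 was called lower, against 12.7% of all genes. Both single calls were near the share of all genes. Of 10 tested clock outputs of the liver, 5 were called higher and 1 lower with HFD in saline-injected mice (13.3% and 12.7% of all genes), and 3 were called higher without Chow 2 or without HFD 2. *Rgs16*, a regulator of G protein signalling, rose by 3.13 (adjusted p 0.00355) and *Nampt*, which makes an NAD precursor, by 0.66 (adjusted p 0.0123). *Elovl3*, a fatty acid elongase, fell from 772 ± 87.5 to 117 ± 48.8 CPM (-2.80, adjusted p 5.06e-05), and with KD on HFD it rose to 250 ± 93.1 CPM (1.11, adjusted p 0.0936, and 0.89, adjusted p 0.235, without HFD/FGFR4 KD 1). That call was lost without HFD 3 (adjusted p 0.277). *Gys2*, the liver glycogen synthase, rose with HFD by 0.54 (adjusted p 0.0317) and fell with KD on HFD by 0.61 (adjusted p 0.101), and by 0.58 without HFD/FGFR4 KD 1 (adjusted p 0.235). It was not called without HFD 3 (adjusted p 0.258) or HFD/FGFR4 KD 4 (0.262).

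Markers of other liver cells also moved with diet. With HFD in saline-injected mice all 6 Kupffer cell and macrophage markers were called higher (13.3% of all genes), and their sum was 50.2 to 59.4 CPM in Chow and 93.4 to 167 CPM in HFD. It was 61.8 to 81.9 CPM in Chow/FGFR4 KD and 76.7 to 140 CPM in HFD/FGFR4 KD. Here 2 of 6 were called higher (10.1% of all genes), 6 of 6 without HFD/FGFR4 KD 1 and 1 of 6 without HFD/FGFR4 KD 4. Of 6 stellate cell and of 6 endothelial markers, 3 each were called higher with HFD in saline-injected mice (1 endothelial marker without Chow 1). Of 6 hepatocyte markers 3 were called lower (12.7% of all genes). These were *Tat*, *Cps1* and *Apoa1*, the last in only 3 of 8 fits that left out a library. With KD on HFD none of the Kupffer cell, stellate cell or endothelial markers was called by limma-voom, though *Col1a1* and *Col3a1* of the stellate cell list were called lower without HFD 2 (adjusted p 0.175 and 0.158). Among hepatocyte markers *Ttr*, which encodes transthyretin, was called lower with KD on HFD (log2 change -0.52, and -0.48 without HFD/FGFR4 KD 1, called in all 8 fits that left out a library), and *Tat* was called higher without HFD 2 or HFD/FGFR4 KD 2 (adjusted p 0.219 in both), *Cps1* only without the latter (0.171). *Cfd*, the only adipocyte marker tested, was called higher with HFD and lower with KD on HFD (log2 change -1.57, adjusted p 0.228). It was not called without HFD/FGFR4 KD 1 (-1.68, adjusted p 0.385), and it kept its call only without HFD/FGFR4 KD 2 among the 8 fits that left out a library. The 4 adipocyte markers summed to 10.9 to 24.4 CPM in HFD and 3.82 to 8.19 CPM in HFD/FGFR4 KD. This sum mainly reads *Cfd*, since *Adipoq* reached at most 1.21 CPM, *Plin1* 0.606 CPM and *Lep* 0 CPM. Fewer cells of a type and less RNA per cell cannot be told apart in whole liver, and the part of these cells in the changes of the clock genes was not tested. The hour of collection cannot be told apart from diet or KD in these libraries.

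Variation between livers of the same group was described by the deviation of log2 CPM from the group mean over all 16 libraries. Over the 28 pairs of the 8 genes, the closest was *Arntl* with *Npas2* (Pearson r 0.81, and 0.85 in the 8 chow and 0.89 in the 8 HFD libraries). *Clock* with *Nfil3* followed at 0.66 (0.78 and 0.58). *Arntl* with *Nfil3* gave 0.60, made of -0.04 on chow and 0.87 on HFD, where HFD 1 was high and HFD 4 low for both. *Arntl* with *Clock* gave 0.01. These 4 pairs gave 0.81, 0.60, 0.58 and -0.08 without HFD/FGFR4 KD 1. Among the listed clock genes *Por* (-0.82), *Nampt* (-0.72), *Usp2* (-0.71), *Tef* (-0.70), *Per3* (-0.67), *Nr1d2* (-0.67) and *Dbp* (-0.66) ran against *Arntl*, and *Insig2* (0.69) and *Elovl3* (0.65) ran with it. The others lay between -0.49 (*Gys2*) and 0.44 (*Nr1d1*), with *Per2* at -0.24, *Hlf* at -0.19, *Per1* at 0.008 and *Rgs16* at 0.09. The first 7 ranged from -0.82 (*Por*) to -0.65 (*Dbp*) without HFD/FGFR4 KD 1. These points share libraries, depth and scaling and are given as a description.

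**Figure D5:**
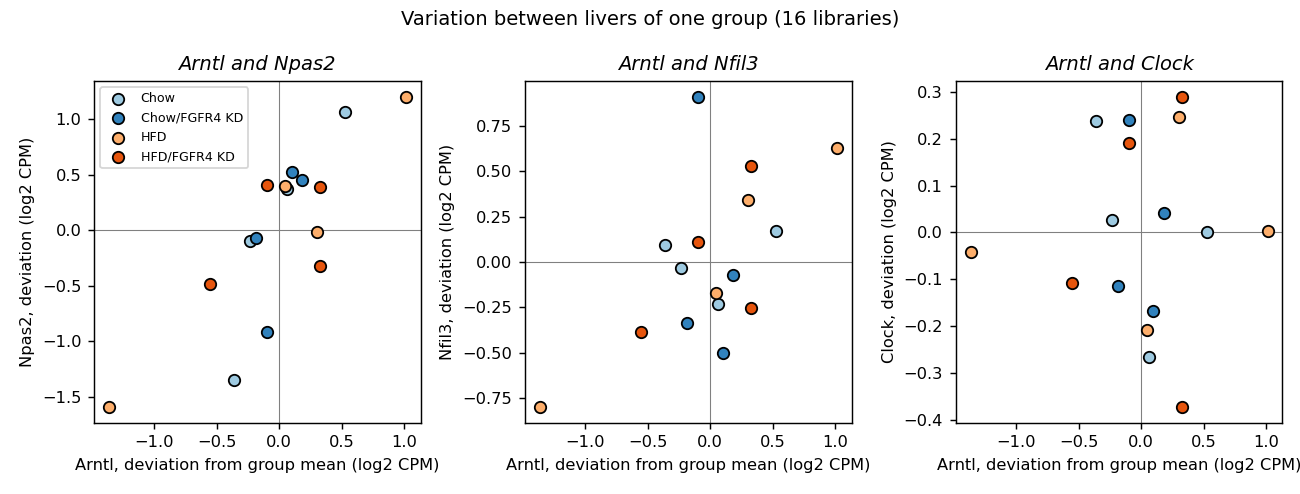
Deviation of log2 CPM from the group mean in each of the 16 livers, *Arntl* (horizontal axis) against *Npas2*, *Nfil3* and *Clock* (vertical axes); colours are groups. HFD 1 is highest and HFD 4 lowest for *Arntl* and *Npas2*, HFD 4 is lowest for *Nfil3* with HFD 1 second to Chow/FGFR4 KD 4, and *Clock* shows no such order (r 0.01).

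By the same measure, 8358 genes with a mean of at least 5 CPM were ranked by likeness to *Arntl*. The 5 most alike were *Mad2l2* (r 0.88), *Dtx4* (0.87), *Clpx* (0.85), *Hexim1* (0.83) and *Ppp1r3c* (0.80). The 5 most opposed were *Por* (-0.82), *Rab3ip* (-0.82), *Ncoa4* (-0.77), *Armc1* (-0.76) and *Arl5b* (-0.76). Within the 8 chow libraries r ranged from 0.56 (*Clpx*) to 0.84 (*Mad2l2*) among the former and from -0.83 (*Ncoa4*) to -0.40 (*Armc1*) among the latter. Without HFD/FGFR4 KD 1 the former ranged from 0.79 (*Ppp1r3c*) to 0.90 (*Mad2l2*) and the latter from -0.85 (*Rab3ip*) to -0.76 (*Armc1*).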

How the data were processed

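Liver RNA from 16 mice was sequenced, 4 libraries in each group of the labels. The deposited values are expected counts for 52143 genes. The authors pseudoaligned reads with kallisto and summed the estimates to genes with tximport. The submitters' notes also name fastp and the build GRCm38, and versions are not given in the sources used here. The labels name a KAPA mRNA kit and the methods of the study another library kit, and whether strand was used is not given, so antisense genes that overlap *Arntl*, *Cry2*, *Rora* and *Bhlhe40* cannot be told apart from them; these hold at most 5 counts summed over all libraries, and the counts of *Gm43909*, opposite *Bhlhe41*, were not analysed here. In a library 7.85% to 11.1% of the cells were not whole numbers. Symbols were found for 98.5% of identifiers.

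The test used the 11324 genes left after a filter on low values (genes under 1 CPM in over 4 libraries were dropped). TMM scaling came from edgeR 4.0.16, and limma-voom from limma 3.58.1 under R 4.3.3 fitted a mean for each group over all 16 libraries. CPM values use the TMM factors. Calls needed both an unadjusted p under 0.05 and, over all genes tested, a Benjamini-Hochberg value under 0.25, as in the study. The p-values rest on the spread between the 4 libraries of a group, taken as 1 estimate per gene over all groups and moderated over all genes. Total counts from 3445949 to 5976449 set the precision. A single gene, *Gm42418*, held 13.4% to 22.7% of the counts in Chow, 11.1% to 15.6% in HFD and 22.3% in HFD/FGFR4 KD 1. With *Gm42418* and *Lars2* removed before scaling, 3 of the 8 genes were called for KD on HFD and 7 for HFD in saline-injected mice, as in the main fit. Alternatives were edgeR's quasi-likelihood test and DESeq2 1.42.0, both on counts rounded to whole numbers, other scalings and filters, a replicate block, weights by library quality, a fit to the compared groups alone and leaving out each library. The pipeline was tested on simulated counts of 11329 genes for KD on HFD, of which 200 were changed 2-fold: 85% of those were recovered and 18.7% of calls were false. No pair of libraries agreed within sampling noise: over 7405 genes the chi-square per degree of freedom was 7.59 to 72.6 in the 24 pairs within groups and at least 7.07 in all 120 pairs.

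Named were the 9 genes, members of 5 lists of other clock genes (by count, and by value where called or set beside a result; the result of 1 list is not reported here), markers of liver cells, and the 5 genes most and least like *Arntl* among genes of at least 5 CPM, without predicted genes. The 9 genes and all lists were chosen with earlier results of these data known. The comparison of HFD/FGFR4 KD with Chow and the fits of listed genes and of likeness without a library were added after the data were seen, and the values of *Bhlhe41* under the filters that keep it were read then. Log2 CPM for deviations used a prior count of 2.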

Additional observations from a re-analysis of the deposited data

How the results depend on the processing

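With only 4 libraries a group, calls for KD on HFD were lost when single libraries were left out: *Arntl* in 2 of 8 fits, *Clock* and *Nfil3* in 5 each. In these fits the log2 change was 1.13 to 1.93 for *Arntl*, 0.44 to 0.65 for *Clock* and 0.92 to 1.38 for *Nfil3*. The fall with HFD in saline-injected mice of *Arntl*, *Npas2*, *Clock*, *Cry1*, *Nfil3* and *Rora* kept its call in all 8 fits that left out a library. Of the 8 tested genes, 0 to 3 were called for KD on HFD when a library was left out (0 without HFD 3, and 1 without HFD 4 or HFD/FGFR4 KD 1, 3 or 4), 6 to 7 for HFD in saline-injected mice, 4 to 7 for HFD under KD, and 0 for KD on chow and for the difference of KD effects. At an adjusted p under 0.05 the count was 0 for KD on HFD and 2 for HFD under KD. Without a filter it was 4 for HFD under KD, where more genes share the adjustment. DESeq2 called 1 for the difference of KD effects, of the 5 genes to which it gave an adjusted p. The numbers of all genes called ranged, over fits leaving out a library and over other settings, from 89 to 605 (89 without HFD 3, 605 without HFD 2, 138 without HFD/FGFR4 KD 1) and from 31 to 776 for KD on HFD, from 1042 to 5324 for HFD in saline-injected mice, from 351 to 2642 for HFD under KD, from 0 to 54 for the difference, and from 1 to 3 for KD on chow. Of the log2 changes of single genes, 325 fits without a library kept direction and call, 30 lost the call and 29 turned direction, and among the other settings 377 kept both, 6 lost the call, 1 gained it and 8 turned. The 6 lost calls were, for HFD under KD, *Arntl* and *Clock* with library totals (limma-voom adjusted p 0.285 and 0.311, with *Clock* at -0.21) and *Arntl*, *Clock* and *Cry2* without a filter (0.266, 0.304 and 0.289), and *Clock* for KD on HFD with only the compared groups (0.264). With library totals *Rora* for HFD in saline-injected mice was -0.31 and still called.

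Each value that turned direction belonged to a gene that was not called in that comparison. With library totals as scaling, *Cry1* for KD on HFD was -0.024, *Bhlhe40* for HFD in saline-injected mice 0.19 and *Cry2* for the difference of KD effects -0.11. The median over all genes with this scaling was 0.29 for HFD in saline-injected mice, 0.14 under KD and -0.13 for the difference. In the main fit these medians were 0.007, -0.009 and -0.003. With quality weights *Nfil3* on chow was -0.015. With edgeR and DESeq2 *Bhlhe40* on chow was -0.10 and -0.11, and *Npas2* for the difference -0.12 and -0.10. Leaving out a library gave ranges from -0.086 to 0.20 for *Cry1* and from -0.29 to 0.047 for *Cry2* with KD on HFD. They ran from -0.17 to 0.30 for *Nfil3* and from -0.24 to 0.45 for *Bhlhe40* on chow, and for *Bhlhe40* from -0.39 to 0.30 with HFD in saline-injected mice and from -0.036 to 0.24 under KD. For the difference they ran from -0.51 to 1.06 for *Npas2*, from -0.15 to 0.19 for *Cry2*, from -0.12 to 0.082 for *Rora* and from -0.21 to 0.49 for *Bhlhe40*. The cause was not tested.

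Replicate numbers in the titles did not pair the livers: deviations of libraries with the same number in different groups had correlations from -0.29 to 0.24 (median 0.00, 24 pairs), and with different numbers from -0.42 to 0.41 (median 0.00, 72 pairs). With a replicate block 3 of the 8 genes were called for KD on HFD, 7 for each diet comparison and 0 for KD on chow and the difference, as without it, and 259 genes were called for KD on HFD.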
